A study of Mus musculus with 6 samples.

Results

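The NEDD4 family ubiquitin ligases and their adaptors were followed as a set of 10 genes: the ligases Nedd4, Nedd4l, Itch, Wwp1, Wwp2, Smurf1 and Smurf2, the adaptors Ndfip1 and Ndfip2, and Rnf128, a ligase of another structural class. They were chosen by name for their function, with the infant and adult values of these libraries known. The large age difference of Nedd4 had already been seen. Each of the 10 symbols was found among the 52997 genes of the count table, and 9 passed the filter on low counts that left 11681 genes for testing. Messenger RNA had been sequenced from CD4+ T cells of pooled lymph nodes, which the series describes as naive, of infants, 10 days old, and adults, 7 weeks old. Both groups were Foxp3-GFP mice on the C57BL/6 background, a strain whose Foxp3-expressing regulatory T cells carry a green fluorescent reporter, so the reporter allele was shared by infants and adults. Each group held 3 mice with 1 library of 1000 sorted cells per mouse, and age was the difference between the groups that the labels gave. The library titles call the cells Tconv, and the markers of the sort were not stated in the sources at hand.

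Ubiquitin ligases attach ubiquitin to other proteins, which marks them for destruction or for transport into the cell. Ligases of the NEDD4 family hold a catalytic HECT domain, which takes ubiquitin over from an E2 enzyme, and WW domains, which bind short proline-rich PY motifs in substrates and adaptors. Ndfip1 and Ndfip2 are membrane proteins with PY motifs that bring these ligases to substrates and relieve their self-inhibition. In T cells Itch and Ndfip1 are known to restrain activation and helper type 2 responses, Nedd4 to favour activation by lowering the inhibitory ligase Cbl-b, and Rnf128, also called GRAIL, to act in anergy.

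Library totals ran from 3421253 to 4887371 counts, and 3 counts corresponded to 0.628 to 0.852 CPM, for counting error only. CPM are counts scaled to the library size over the tested genes (counts per 1000000). The T cell genes Cd4 and Cd3e were at 855.9 to 1125.7 and 567.5 to 636.3 CPM over the 6 libraries. Foxp3 was low, at 4.49 to 6.25 CPM in adults and 6.53 to 9.18 CPM in infants. Adult replicate 2 stood apart: 36373 genes had at least 1 count there, compared with 17992 to 21840 elsewhere. It also held 1.85 counts per kb of exon over 10982 untested protein-coding genes of the autosomes, compared with 0.186 to 0.349 in the other 5. In each of the 6 pairs of replicates the libraries differed beyond the noise of counting.

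Nedd4, the founding ligase of the family, lies on chromosome 9 (72662346 to 72749852, plus strand, mm10). RefSeq annotates 2 starts 30967 bases apart, and the deposited counts are per gene, so RNA from the starts cannot be told apart. The 250 bases before each start are shown because Nedd4 was the member past the test; they come from RefSeq on GRCm38.p6, plus strand, with GC boxes (GGGCGG on either strand) in capitals. The upstream window is chr9:72662081-72662330 and the downstream window, inside the gene, is chr9:72693048-72693297.
Nedd4 upstream start: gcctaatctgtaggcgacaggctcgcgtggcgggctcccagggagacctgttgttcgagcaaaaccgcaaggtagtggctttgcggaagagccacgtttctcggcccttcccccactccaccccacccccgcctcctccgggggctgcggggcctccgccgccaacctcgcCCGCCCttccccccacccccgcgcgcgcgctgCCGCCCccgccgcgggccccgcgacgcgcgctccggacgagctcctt
Nedd4 downstream start: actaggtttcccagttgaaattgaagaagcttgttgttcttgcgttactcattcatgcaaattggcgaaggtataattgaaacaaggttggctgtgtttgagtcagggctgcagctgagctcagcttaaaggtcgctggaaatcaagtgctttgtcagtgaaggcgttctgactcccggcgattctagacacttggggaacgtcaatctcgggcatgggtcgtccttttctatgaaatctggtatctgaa
The upstream window had 74.0% G and C, 32 CpG pairs and 2 GC boxes, and the downstream window 46.0%, 9 CpG pairs and no GC box. Over 32851 such windows of 27025 genes the median was 6.0 CpG pairs, 4.6% of windows had at least 32, and 32.7% held a GC box. The downstream window held 1 CCAAT box (CCAAT on either strand), a motif found in 33.8% of windows, and neither held TATAAA on either strand, found in 12.4%. The downstream window also lies in an exon of the gene Gm7265, which had 0, 8 and 0 counts in adults and 0, 1 and 11 in infants. RefSeq windows were at hand for 6 of the 10 members.

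The comparison asked how the RNA of these ligases and adaptors differed between CD4+ T cells of infant and adult mice. Nedd4 RNA was low in adult cells and several times higher in infant cells. Adult libraries held 25, 35 and 21 counts of Nedd4, or 6.06, 9.94 and 4.49 CPM in replicates 1, 2 and 3. Infant libraries held 122, 144 and 236 counts, or 25.5, 34.8 and 57.0 CPM. The lowest infant value lay above the highest adult value, and infant replicate 3 was the highest of all. The means were 6.83 ± 2.81 CPM (SD, n = 3) in adult and 39.1 ± 16.2 CPM in infant cells, which is 5.73-fold higher in infant cells and a log2 fold change of 2.54 ± 0.34 (SE, edgeR). By size of rise Nedd4 stood in place 29 and by p-value in place 41 of the 11681 tested genes. Because this difference was known when the family was chosen, it is given as a description.

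**Figure D1:**
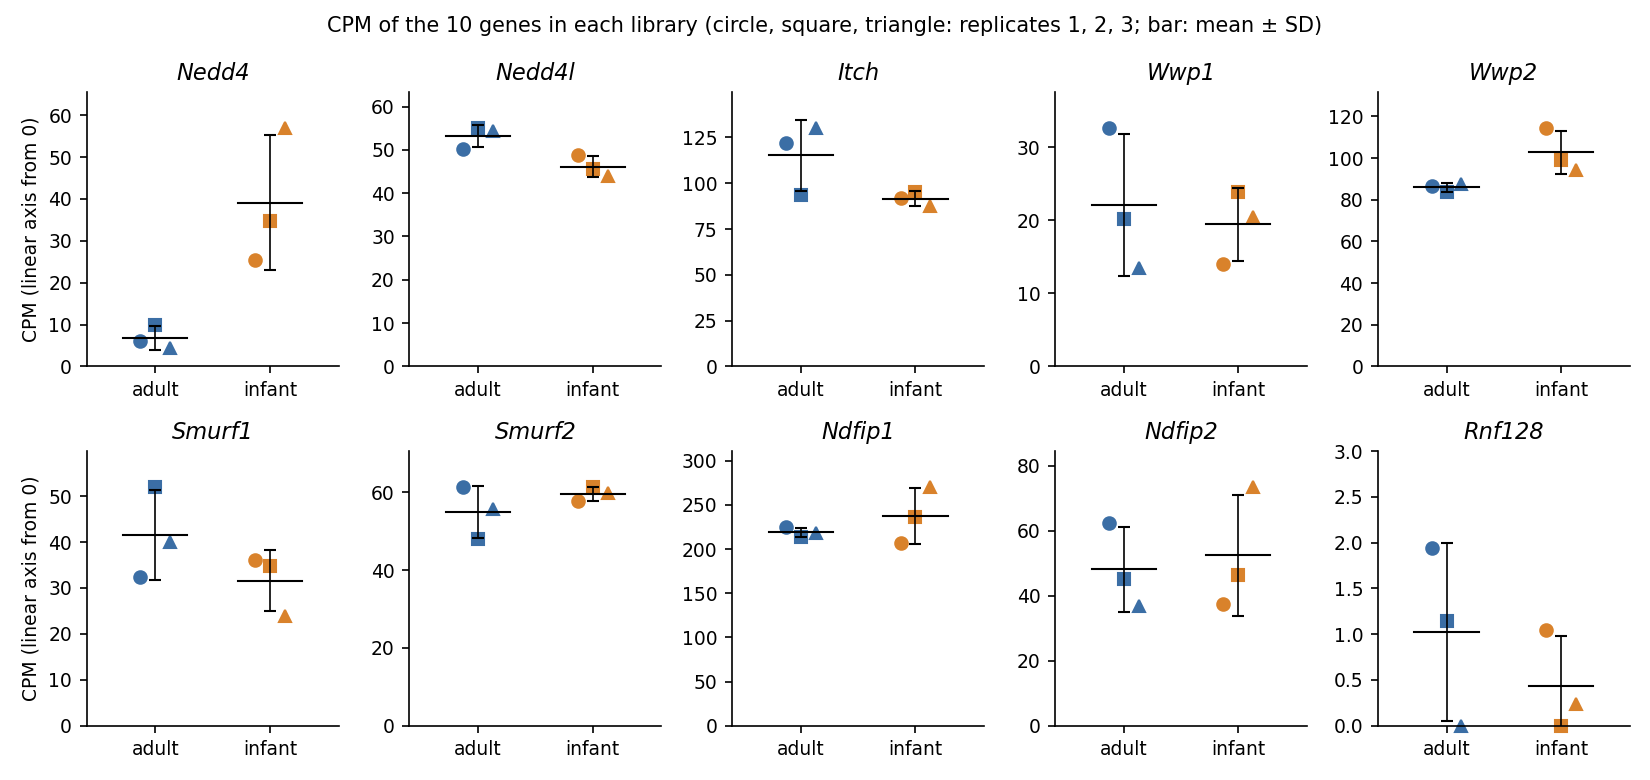
CPM (counts per 1000000 counts of tested genes, linear axis from 0 in each panel) of the 10 genes in adult (blue) and infant (orange) libraries; circles, squares and triangles are replicates 1, 2 and 3, and the line and whisker are the mean and SD of 3 libraries. The infant points of Nedd4 lie at 25.5 to 57.0 CPM, above the adult points at 4.49 to 9.94, while the groups overlap for 7 of the other 9 genes.

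Of the 9 tested members, 1 was higher in infant cells at an adjusted p under 0.05 (Nedd4), 0 were lower and 8 did not pass. The test was the quasi-likelihood test of edgeR, with Benjamini-Hochberg adjustment over all tested genes, and called 3.64% of them, 1.52% as higher and 2.11% as lower in infant cells. The median log2 fold change was 0.12 over the 9 members and 0.00 over all tested genes. The 8 other members had adjusted p of 0.234 to 0.862 in edgeR. At an unadjusted p under 0.05 in edgeR there were 2 members, Nedd4 and Itch, beside 2018 of all 11681 tested genes. DESeq2 and limma-voom each called 1 member, Nedd4, beside 622 and 426 of the 11681 genes. The infant and adult values did not overlap in 3 members (Nedd4, Nedd4l and Wwp2), beside 22.8% of all tested genes.

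Nedd4 was called as higher in infant cells also with each library left out in turn, with log2 fold changes of 2.16 (without infant replicate 3) to 2.89 (without adult replicate 2). In adult replicate 2, the density of counts over untested genes would amount to 20.3 counts on the 10973 exon bases of Nedd4, against the 35 observed. In the other 5 libraries it would amount to 2.04 to 3.83 counts. Without both adult replicate 2 and infant replicate 3, a choice made after seeing the data, the log2 fold change of Nedd4 was 2.52 ± 0.35.

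Nedd4l, the closest relative of Nedd4 and known from the control of ion channels, lies on chromosome 18 (64887705 to 65217828). Adult libraries 1 to 3 had 50.2, 55.1 and 54.3 CPM and infant libraries 48.8, 45.5 and 44.0 CPM. Each infant value lay below each adult value by a small step, and the log2 fold change of −0.21 ± 0.15 (SE) did not pass. An interval of 2 SE around it ran from −0.51 to 0.10. In adult replicate 2 the density of counts over untested genes would amount to 32.7 of the 194 counts of Nedd4l. The values were not corrected for this density. The level of Nedd4 per kb of exon, as a ratio to that of Nedd4l in the same library, was 0.194, 0.290 and 0.133 in the adult libraries. In the infant libraries the ratio was 0.843, 1.233 and 2.087, so that Nedd4 was the more abundant per length in infant replicates 2 and 3.

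Itch, the ligase whose loss gives itchy mice their immune disease, lies on chromosome 2 (155133509 to 155226855). Adult libraries had 122.2, 93.5 and 130.3 CPM of Itch and infant libraries 91.7, 95.5 and 87.4 CPM. Adult replicates 1 and 3 were above the infant values and adult replicate 2 was among them. The log2 fold change was −0.34 ± 0.14 (2 SE interval −0.62 to −0.05) and did not pass after adjustment over all genes (edgeR adjusted p = 0.234).

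Wwp2, named for its WW domains, lies on chromosome 8 (107436365 to 107558595) and was at 86.8, 83.5 and 87.4 CPM in adults and at 114.5, 99.2 and 94.4 CPM in infants. The infant values lay above the adult values, by a smaller step than in Nedd4. Its log2 fold change of 0.26 ± 0.13 did not pass (edgeR adjusted p = 0.331; 2 SE interval 0.00 to 0.51).

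Wwp1, on chromosome 4 (19608303 to 19708993), was at 32.7, 20.2 and 13.5 CPM in adults and at 14.0, 23.9 and 20.5 CPM in infants. The adult values spread more widely than the infant ones and enclosed them, and the log2 fold change of −0.18 ± 0.31 had a 2 SE interval of −0.81 to 0.44.

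Smurf1 and Smurf2 are named for the SMAD proteins of transforming growth factor beta signalling that they act on. Smurf1 (chromosome 5, 144876495 to 144965847) was at 32.5, 52.0 and 40.0 CPM in adults and at 36.0, 34.8 and 23.9 CPM in infants, with a log2 fold change of −0.39 ± 0.22. The groups overlapped, with adult replicate 2 highest and infant replicate 3 lowest. Without those 2 libraries the log2 fold change of Smurf1 was −0.03 ± 0.23. Smurf2 (chromosome 11, 106820066 to 106920715) was at 61.3, 48.0 and 55.8 CPM in adults and at 57.8, 61.4 and 59.9 CPM in infants. The log2 fold change of Smurf2 was 0.12 ± 0.15, with a 2 SE interval of −0.19 to 0.42.

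Ndfip1, the adaptor needed for Itch to act in T cells, lies on chromosome 18 (38410396 to 38465303) and was the most abundant member per length. Adult libraries had 224.5, 213.9 and 218.4 CPM of Ndfip1 and infant libraries 207.1, 236.5 and 270.3 CPM. Infant replicate 1 was the lowest and infant replicate 3 the highest of the 6, and the log2 fold change was 0.12 ± 0.12 (2 SE interval −0.11 to 0.35). Ndfip2 (chromosome 14, 105258573 to 105309298) was at 62.3, 45.2 and 36.7 CPM in adults and at 37.5, 46.2 and 73.4 CPM in infants. Its groups overlapped widely, and its log2 fold change of 0.12 ± 0.25 changed sign to −0.20 without infant replicate 3 and to −0.05 without adult replicate 3.

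**Figure D2:**
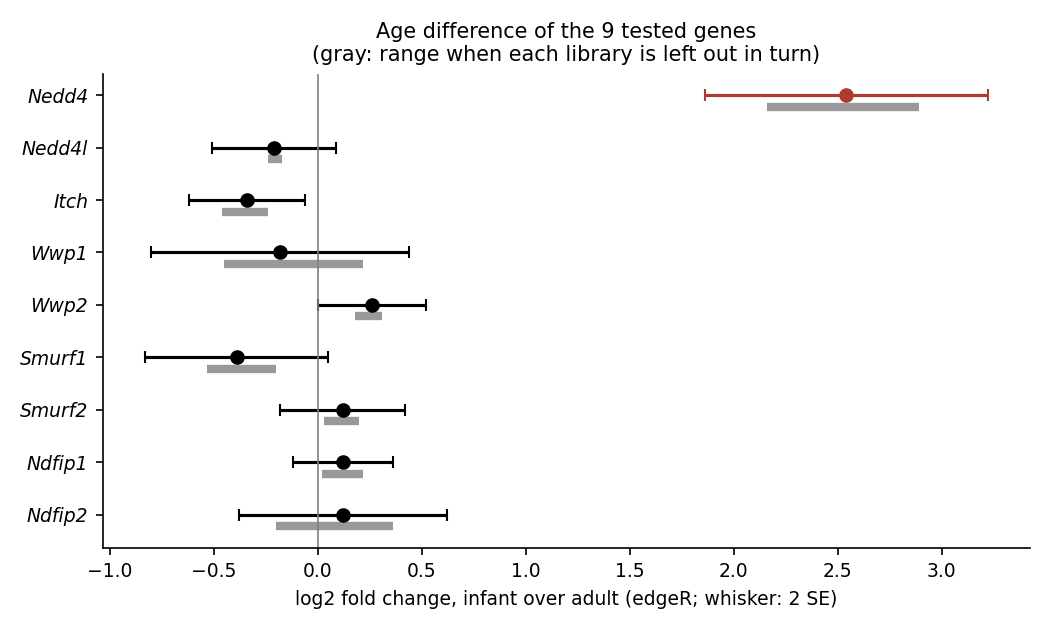
Log2 fold change, infant over adult, of the 9 tested genes from edgeR, with whiskers of 2 SE; gray bars span the values with each of the 6 libraries left out in turn. Nedd4 (red) lies at 2.54 and the other 8 genes between −0.39 and 0.26.

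Rnf128 was near the limit of counting and was removed by the low-count filter. Its counts were 8, 4 and 0 in adults and 5, 0 and 1 in infants. The 4 counts in adult replicate 2 were fewer than the 6.42 that the density over untested genes would give on its 3464 exon bases. The libraries at 0 allow up to 0.641 CPM (adult replicate 3) and 0.726 CPM (infant replicate 2), taking 3 counts as the limit. At this depth a difference between the ages was not detectable for Rnf128.

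Levels of different genes were compared as CPM per kb of exon, over the union of annotated exons. In adult cells the order ran from Ndfip1 (34.6 ± 0.838, SD, n = 3) over Itch (11.9 ± 1.99), Wwp2 (9.68 ± 0.234), Smurf2 (8.93 ± 1.09), Smurf1 (6.55 ± 1.55), Ndfip2 (4.16 ± 1.13), Wwp1 (3.43 ± 1.52) and Nedd4l (3.01 ± 0.149) to Nedd4 (0.622 ± 0.256) and Rnf128 (0.296 ± 0.281). Ndfip1 lay above Itch, and Nedd4 below Nedd4l, with ranges that did not overlap. Each other pair of neighbours in the adult order overlapped. In infant cells the order was Ndfip1 (37.6 ± 4.99), Wwp2 (11.6 ± 1.18), Smurf2 (9.69 ± 0.297), Itch (9.43 ± 0.418), Smurf1 (4.98 ± 1.05), Ndfip2 (4.53 ± 1.62), Nedd4 (3.57 ± 1.47), Wwp1 (3.02 ± 0.781), Nedd4l (2.61 ± 0.140) and Rnf128 (0.124 ± 0.158). There the neighbours Smurf2 and Itch overlapped, as did Smurf1, Ndfip2, Nedd4, Wwp1 and Nedd4l from one to the next. The highest of the 7 HECT ligases per length was Itch in each of the 3 adult libraries and Wwp2 in each of the 3 infant libraries. The ratio of Wwp2 to Itch was 0.777, 0.978 and 0.734 in adult and 1.367, 1.136 and 1.182 in infant libraries.

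**Figure D3:**
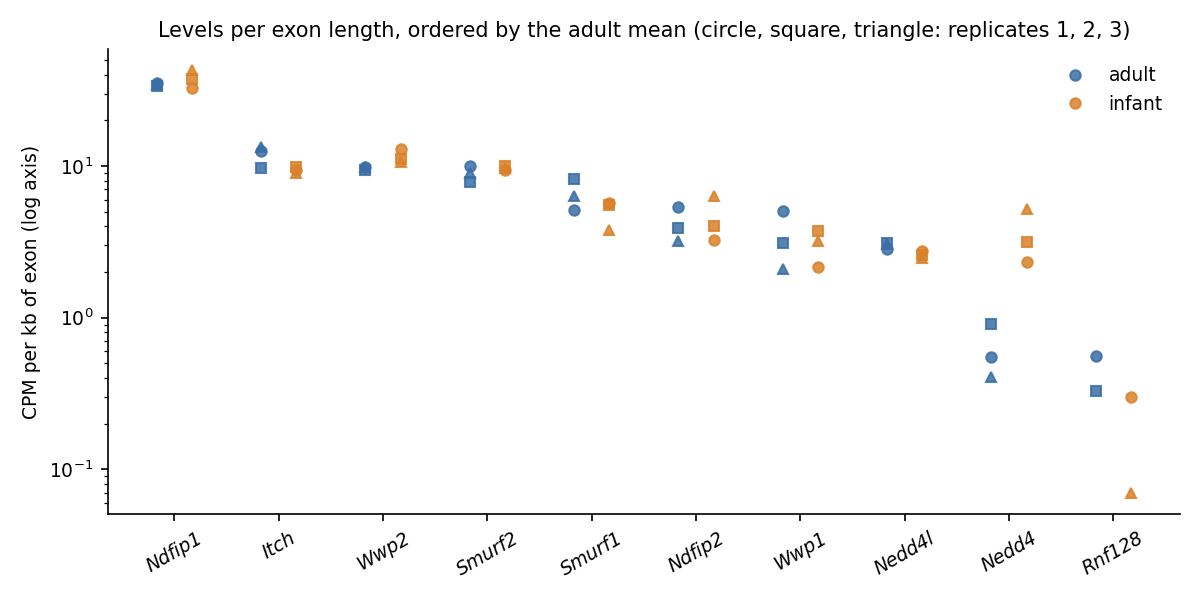
CPM per kb of exon (log axis) of the 10 genes in adult (blue) and infant (orange) libraries, ordered by the adult mean; circles, squares and triangles are replicates 1, 2 and 3, and values of 0 (Rnf128 in 2 libraries) are not drawn. Nedd4 lies below Nedd4l in adult libraries and within the range of Ndfip2 to Nedd4l in infant libraries, apart from its lowest infant value.

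Within the 7 HECT ligases the share of Nedd4 in their summed level per kb was 1.20%, 2.15% and 0.93% in the adult libraries. It was 5.21%, 6.91% and 11.80% in the infant libraries. Nedd4 ranked lowest of the 7 in each adult library, in place 6 in infant replicates 1 and 2 and in place 4 in infant replicate 3. The summed CPM of the 7 ligases were 391.8, 362.2 and 385.8 in adult and 388.3, 395.1 and 387.1 in infant libraries. The infant sums lay within or just above the adult range, while the part of Nedd4 was larger in each infant library.

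Genes of dividing cells were the marker list that was higher along with Nedd4. The summed level of its 12 genes was 10.7, 55.1 and 13.9 CPM in adult and 86.5, 96.5 and 209.6 CPM in infant libraries. Of its 9 tested genes 4 rose, 0 fell and 5 did not pass in edgeR (limma-voom called 5 as higher). Mki67 and Top2a were called with each library left out in turn. With 1 library left out, Nusap1 and Ccna2 were called only without adult replicate 2. Ccna2 was not called by DESeq2 or with the replicate number as a block. Adult replicate 2 was the highest adult and infant replicate 3 the highest infant library for the sum as for Nedd4. Adult replicate 2 also held 1.85 counts per kb over untested genes, compared with 0.186 to 0.349 elsewhere. Neither the sum nor the level of Nedd4 was corrected for this density. The summed level of 6 natural killer genes went the other way, mostly from Prf1 and Klrd1. It was 105.0 to 113.4 CPM in adult and 28.5 to 36.9 CPM in infant libraries. These were the tested genes of the list, and both fell in edgeR, Prf1 (perforin) by 1.86 ± 0.19 and Klrd1 by 1.33 ± 0.31 on the log2 scale. Klrd1 was not called by limma-voom (adjusted p = 0.0514) or without any 1 library other than adult replicate 3 (edgeR adjusted p up to 0.138). The others were too low to test. The natural killer receptor Ncr1 was at 0 in each library, Klrb1c and Eomes had lower infant means and Gzma a higher one. The summed level of 5 regulatory T cell genes was 111.1 to 129.9 CPM in adult and 89.0 to 96.1 CPM in infant libraries. It came mostly from Tnfrsf18. Of the 5 genes 0 passed in edgeR and 1, Tnfrsf18, had an unadjusted p under 0.05. DESeq2 called Tnfrsf18 as lower (−0.55, adjusted p = 0.0303). Foxp3 and Ikzf2 went the other way, with means of 5.60 and 6.33 CPM in adults and 7.61 and 9.15 CPM in infants. Il2ra and Ctla4 had lower infant means, and none of these 4 was called by DESeq2. The summed levels of B cell, myeloid, gamma-delta, CD8, stromal and erythroid genes overlapped between the ages; the B cell sum of 673.6 to 836.9 CPM was mostly Ighm. The part of dividing cells, or of other cells, in the level of Nedd4 was not tested, and in RNA of whole samples more cells with Nedd4 RNA and more Nedd4 RNA per cell cannot be told apart.

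**Figure D4:**
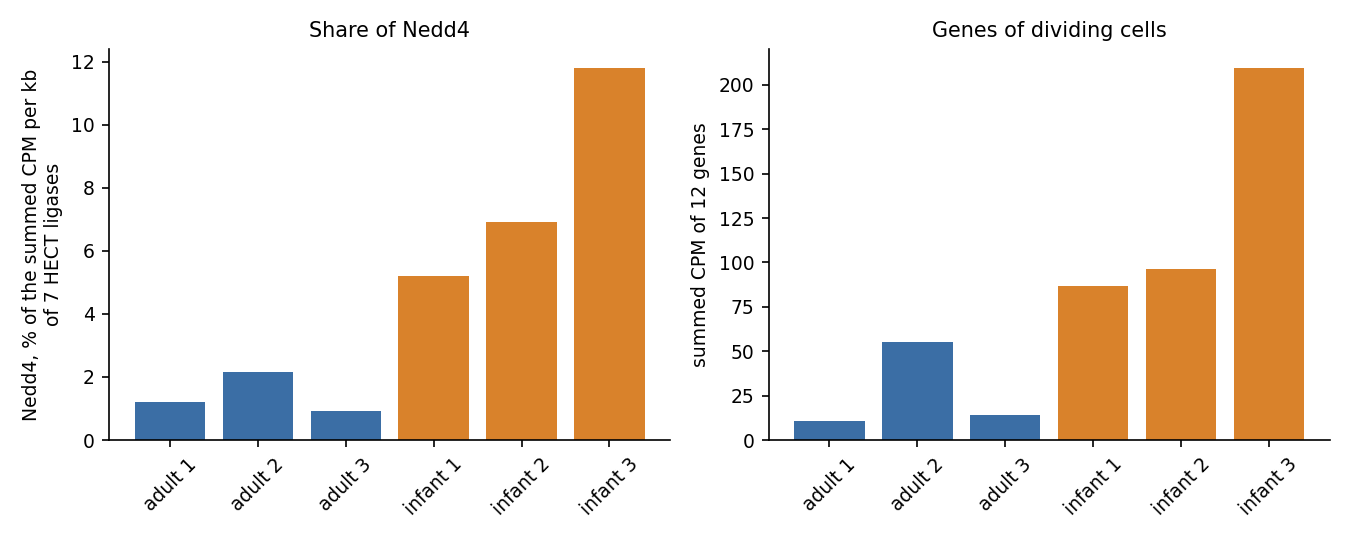
Left, the share of Nedd4 in the summed CPM per kb of 7 HECT ligases (percent); right, the summed CPM of 12 genes of dividing cells; 1 bar for each library, adult in blue and infant in orange. Both are higher in each infant library than in each adult library, with infant 3 the highest (11.80% and 209.6 CPM).

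The genes whose log2 CPM were most like those of Nedd4 over the 6 libraries, among 7079 genes with a mean of at least 20 CPM, were Sugp2, Ufsp2, Slc4a8 and Psmd8. Their Pearson correlations with Nedd4 were 0.992, 0.987, 0.986 and 0.976, given as a description because the 6 points share libraries, depth and the 2 ages. Slc4a8, a bicarbonate transporter, rose from 13.8 ± 4.14 CPM in adult to 30.9 ± 6.10 CPM in infant cells (a log2 fold change of 1.18 ± 0.26, edgeR adjusted p = 0.0233). Sugp2, Ufsp2 (a protease of the ubiquitin-like modifier UFM1) and the proteasome subunit Psmd8 had log2 fold changes of 0.30 ± 0.13, 0.28 ± 0.18 and 0.26 ± 0.10 and did not pass.

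Other genes of the pathway were read from 8 lists of 103 genes in all, of which 90 were tested. Of these, 3 rose, 3 fell and 84 did not pass, with a median log2 fold change of −0.02. The 2 remaining members of the NEDD4 family, Hecw1 and Hecw2, were too low to test. Hecw1 had 2, 24 and 0 counts in adult and 0, 0 and 3 in infant libraries, and Hecw2 had 1, 33 and 13 and 2, 2 and 4, so that most of their counts came from adult replicate 2.

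Of 17 ligases with a HECT domain outside the family, 0 passed in edgeR, DESeq2 or limma-voom, and 1 had an unadjusted p under 0.05 in edgeR (median −0.04). Huwe1 had the highest mean CPM over the 6 libraries (not corrected for length), at 484.3 ± 58.6 CPM in adults and 434.0 ± 10.4 CPM in infants (log2 fold change −0.16 ± 0.11). At an unadjusted p under 0.05, there were 16 of the 90 genes of the 8 lists, beside 2018 of all 11681 tested genes. E2 enzymes that hand ubiquitin to HECT ligases had 0 of 6 past the test with any of these 3 tools, 0 at an unadjusted p under 0.05, and a median of 0.27. Ube2d3 and Ube2l3, which had the highest mean CPM of them over the 6 libraries (not corrected for length), had log2 fold changes of 0.22 ± 0.13 and 0.37 ± 0.18.

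Among other adaptors and regulators with PY motifs or binding to these ligases, 1 of 18 rose and 0 fell in edgeR, with a median of −0.23 and 5 at an unadjusted p under 0.05. DESeq2 called 1 other gene, N4bp3, as lower (−1.40, adjusted p = 0.0494). The gene that rose in edgeR and limma-voom was Txnip, an arrestin-fold protein that limits glucose uptake and carries PY motifs. Its RNA was at 555.2, 292.6 and 427.9 CPM in adults and at 839.0, 639.0 and 777.7 CPM in infants, with each infant value above each adult value (log2 fold change 0.82 ± 0.18, edgeR adjusted p = 0.0194). The call of Txnip was lost with DESeq2 and without adult replicate 3 or any infant library (highest adjusted p = 0.116).

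Among substrates described for these ligases 1 of 23 rose, 2 fell and 20 did not pass in edgeR, with a median of −0.03. At an unadjusted p under 0.05 there were 6. DESeq2 called 4 (1 higher, 3 lower) and limma-voom 2 (1 higher, 1 lower). The gene called by DESeq2 alone was Notch1, as lower (−0.38, adjusted p = 0.0454). Cd81, a tetraspanin described as a target of Rnf128, went from 52.1 ± 7.21 CPM in adult to 110.4 ± 10.7 CPM in infant cells (a log2 fold change of 1.08 ± 0.15, edgeR adjusted p = 0.000910). Cd83, a surface glycoprotein of activated cells also described for Rnf128, was at 12.8, 22.4 and 7.05 CPM in adults and at 3.98, 2.42 and 2.90 CPM in infants (−2.16 ± 0.46, edgeR adjusted p = 0.0183). Its counts were low and its groups did not overlap. Junb, the transcription factor that Itch targets, went from 195.2 ± 20.9 to 138.9 ± 7.62 CPM (−0.49 ± 0.12, edgeR adjusted p = 0.0319). Cd81 was called with each library left out in turn. Cd83 lost its call with limma-voom and without adult replicate 1 or 2 or any infant library (edgeR adjusted p up to 0.113 with 1 library left out, and 0.136 without adult replicate 2 and infant replicate 3). Junb lost its call with any 1 library left out (edgeR adjusted p up to 0.199).

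Rnf43, a ligase of the same transmembrane class as Rnf128 and known for removing Wnt receptors, was the 1 of 7 tested relatives that rose in edgeR, and 0 fell (median 0.06, 2 at an unadjusted p under 0.05). DESeq2 also called Rnf13, as lower (−0.62, adjusted p = 0.0288). The RNA of Rnf43 was at 15.5, 19.6 and 14.3 CPM in adults and at 44.4, 39.2 and 46.4 CPM in infants, with no overlap of the groups (log2 fold change 1.40 ± 0.20, edgeR adjusted p = 0.00147). Rnf43 was called with each library left out in turn. Among other ligases of T cell tolerance 1 of 9 fell and 0 rose in edgeR, DESeq2 and limma-voom (median −0.02, 1 at an unadjusted p under 0.05). Dtx1, or Deltex1, a Notch-linked ligase of anergy, went from 57.8 ± 6.19 to 29.7 ± 5.22 CPM (−0.96 ± 0.18, edgeR adjusted p = 0.00885, and 0.0524 without infant replicate 3). Cblb, the ligase that Nedd4 is described to act on, was at 175.6 ± 19.8 and 155.4 ± 21.0 CPM (−0.18 ± 0.13) and did not pass. Of 11 deubiquitinases, which take ubiquitin off again, 0 passed with any of the 3 tools and 1 had an unadjusted p under 0.05 in edgeR. Cyld and Usp15, with the highest mean CPM (not corrected for length), had log2 fold changes of 0.04 ± 0.11 and 0.06 ± 0.12.

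**Figure D5:**
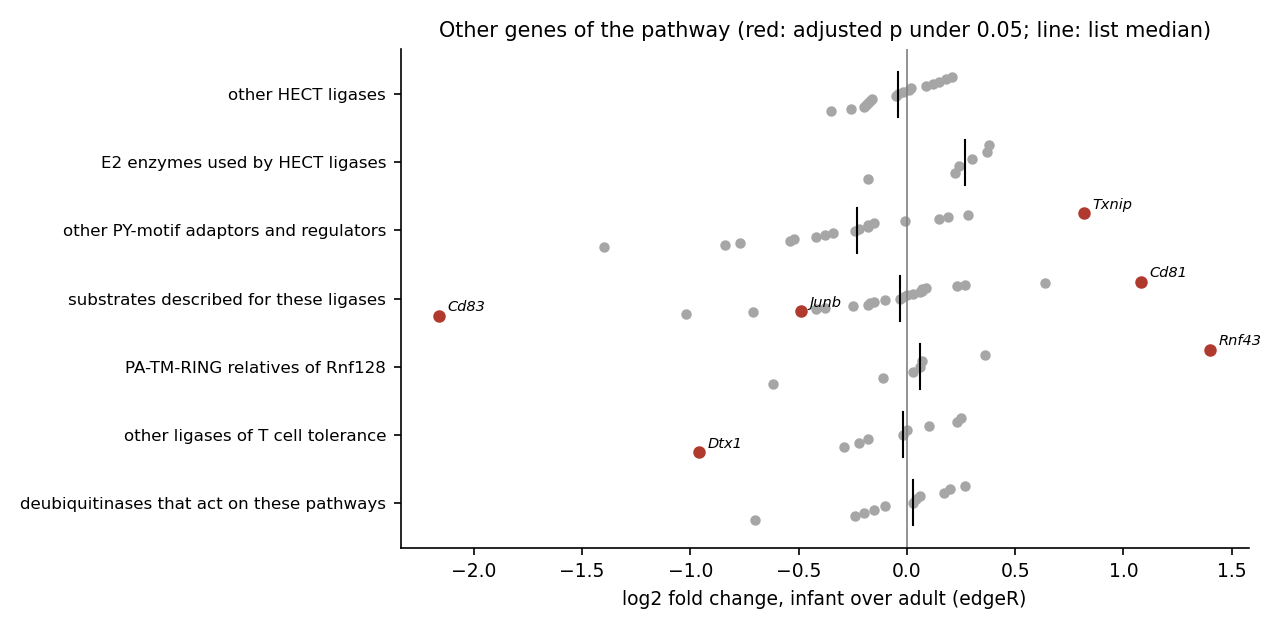
Log2 fold change, infant over adult (edgeR), of the tested genes of 7 pathway lists, each gene a point; red points passed at an adjusted p under 0.05 and the black line is the list's median. Txnip, Cd81 and Rnf43 lie to the right and Cd83, Dtx1 and Junb to the left, and the medians lie between −0.23 and 0.27.

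Reads of 25 bases can match several genes, so the words of 25 bases of each member's annotated transcripts were looked for in transcripts of other genes. Nedd4 shared 2.07% of its words with another gene and 0.41% with another member, and Nedd4l shared 2.00% and 0.00%. Of the 228 shared words of Nedd4, 108 were in the gene Wdcp. Wdcp had 57, 46 and 75 counts in adult and 73, 41 and 74 counts in infant libraries. The largest shares were 11.63% for Wwp1, mostly with the gene Gm13416, and 7.70% for Itch. Gm13416 had 4 counts in adult replicate 2 and 0 in the other 5 libraries. Ndfip2 shared 4.80% of its words, mostly with Gm16259, a processed pseudogene on the opposite strand at the same place, which had 0 counts in each library. The counting of reads that match several places was not stated in the sources at hand.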

How the data were processed

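STAR 2.5.4 served for alignment and featureCounts for counting, on mm10, per the submitters' processing notes; the annotation, the featureCounts version and the strand setting are not stated there. The authors deposited raw counts per gene symbol, whole numbers that were not normalized, for the 6 libraries. Per the labels' protocols, cells were sorted 2 times, RNA was copied with an oligo(dT) primer, amplified by PCR, fragmented with a transposase and sequenced in paired reads of 25 bases, without strand marks or molecular identifiers, so counts include PCR copies and overlapping genes on opposite strands are not separated.

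Genes were tested with edgeR 4.0.16 (R 4.3.3) with its quasi-likelihood F test, infant against adult, without covariates, after filterByExpr (minimum count 10, minimum total 15), TMM scaling (factors 0.963 to 1.07) and adjustment by Benjamini-Hochberg over 11681 genes at 0.05. The SE of a fold change was obtained from its log2 value and the F statistic, as the size of the former over the root of the latter. For CPM, library sizes were the counts summed over tested genes, multiplied by the TMM factor. The series states 1 mouse per replicate. Exon lengths and positions came from GENCODE on the same build. DESeq2 1.42.0 and limma 3.58.1 (voom) were alternatives, with other size factors, other filters, thinning, a replicate block and each library left out.

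The members, the pathway lists (from textbook knowledge) and the markers were chosen with earlier results of these data known. All 10 members were named, in each list up to 3 passing genes of smallest p (otherwise the 2 of highest mean CPM), and the 4 genes most like Nedd4 over the libraries. Hecw1, Hecw2, Cblb, N4bp3, Rnf13, Notch1 and the genes of shared words were named after their values were seen. So were the marker genes other than Cd4, Cd3e and Foxp3, which served to check the labels. Some genes that the rule or the lists name are not reported here.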

Additional observations from a re-analysis of the deposited data

How the results depend on the processing

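Of 144 values of the 9 tested members under 16 alternatives, 139 kept their direction and their side of the threshold. The call of Nedd4 was kept under each of the 16. The 5 that changed sign were uncalled: Ndfip2 at −0.20 without infant replicate 3, −0.05 without adult replicate 3 and −0.24 without adult replicate 2 and infant replicate 3 (its range over single libraries left out was −0.20 to 0.36), and Wwp1 at 0.22 without adult replicate 1 and 0.02 without infant replicate 1 (−0.45 to 0.22). The cause was not tested. The count of 425 genes was 139 to 488 with 1 library left out (fewer samples) and 162 at an adjusted p of 0.01. The count of 6 pathway genes was 2 to 5 with 1 library left out, and DESeq2 called 8 of the 90 (2 higher, 6 lower). Over all 11681 genes DESeq2 called 622 (268 higher, 354 lower), beside 425 in edgeR. With the replicate number as a block 326 genes were called, Nedd4 had a log2 fold change of 2.49, and Junb and Klrd1 lost their calls, Junb also without a filter on low counts. Over all tested genes, same-numbered adult and infant libraries did not deviate together (correlations −0.0471, −0.0108 and −0.0919). No adult library correlated best with the infant library of its number, so no pairing by number was seen over these genes. A pairing that acts on some genes only was not tested. The low counts of Rnf128, Hecw1 and Hecw2 limit what can be said of them.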
